A study of Danio rerio with 14 samples.

Results

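The 5 genes described here encode parts of NADPH oxidase complexes, and they are nox1 (ENSDARG00000087574), noxo1a (ENSDARG00000041294), noxo1b (ENSDARG00000056374), cyba (ENSDARG00000018283) and ncf4 (ENSDARG00000040812). They were taken by identifier from the 19859 genes of a bulk RNAseq table of zebrafish retinas, RPE included. The samples were 7 chmru848 and 7 wt retinas at 5 dpf. The chmru848 zebrafish carry a mutation in chm, the gene mutated in choroideremia, an X-linked retinal dystrophy, and they degenerate widely and survive only to about the age sampled. The wt zebrafish were of the AB strain. No treatment is named for either group, and whether they came from the clutches of the mutants is not given in the sources used here. The study asked which pathways differ between the genotypes.

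NADPH oxidases pass electrons from cytosolic NADPH across a membrane to oxygen, which gives superoxide or hydrogen peroxide. In mammals, Nox1 is the catalytic subunit best known from colon epithelium, and it works with the membrane partner p22phox (cyba), the organiser Noxo1, the activator Noxa1 and the GTPase Rac. Phagocytes use a related complex, in which gp91phox (cybb) takes the catalytic role beside the same p22phox, and p47phox (ncf1) and p40phox (ncf4) are among the cytosolic subunits. cyba therefore belongs to both complexes, whereas nox1 and the noxo1 genes belong to the first and ncf4 to the second. Zebrafish carry noxo1a and noxo1b as a pair of noxo1 paralogs.

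Transcripts of 4 parts of the Nox1 complex, nox1, noxo1a, noxo1b and cyba, were more abundant in chmru848 retinas. The difference was largest for noxo1a, which also varied most among chmru848 retinas, and noxo1b varied least among them. The phagocyte subunit ncf4 was close to the detection limit in wt retinas and detected in only some chmru848 retinas, and it did not pass here. The study, which tested read counts of the same retinas, reported ncf4 as upregulated. cybb, the phagocyte counterpart of nox1, had nearly the same mean in both genotypes.

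Values are given as normalized counts, which are read counts divided by the depth factor of each retina, and are listed in the order of replicates 1 to 7. A difference is the chmru848 mean minus the wt mean on the deposited log2 scale, which compresses low values. It was tested with limma, and p values were adjusted over the 19751 genes tested. Of all these genes, 19.9% were higher in chmru848 retinas at an adjusted p under 0.05 and 23.7% were lower, so a call for a single gene is common here. All 5 genes also stand on lists that the study drew from these same retinas, so the tests below are no independent evidence. In bulk tissue, fewer or more cells of a type and less or more RNA per cell cannot be told apart.

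Estimated depth was 14.2 to 29.4 M reads for each chmru848 retina and 18.1 to 26.4 M reads for each wt retina. Between 369 and 1983 genes per chmru848 retina and between 317 and 628 per wt retina were listed at the table's lowest value, most of all in chmru848 replicates 1, 2 and 4. Retina and RPE markers were abundant in both groups, with a summed level of 137965 to 519381 normalized counts in chmru848 and 471526 to 2496319 in wt retinas. Of 19 rows of that list, 13 were lower in chmru848 retinas (68.4%, against 23.7% of all genes). Only 1, the glial gene GFAP, was higher in chmru848 retinas (44.3 ± 33.5 to 448 ± 185 normalized counts). The lowest of these wt sums, 471526, was that of replicate 6 alone, which thereby stood apart from the other wt retinas, at 1383198 or more. Results are therefore also given without this retina, which had the highest wt values of nox1, noxo1a and noxo1b. The row named CHM, the mutated gene, had 309.9 ± 103 normalized counts in chmru848 and 358 ± 54.6 in wt retinas (SD, n = 7 each), a difference of -0.22 (SE 0.19, limma adjusted p = 0.358). Its level therefore did not separate the genotypes and could not be used to check the labels.

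The catalytic subunit gene nox1 had 124, 166, 84.7, 259, 139.9, 316 and 47.9 normalized counts in the 7 chmru848 retinas. In the 7 wt retinas it had 25.3, 53.4, 15.2, 31.2, 58.9, 112 and 12.3. The groups overlapped, since wt replicate 6 lay above chmru848 replicates 3 and 7 and wt replicates 2 and 5 lay above chmru848 replicate 7, while all 7 chmru848 retinas lay above the wt median of 31.2. The means were 163 ± 95.0 and 44.1 ± 34.9 (SD, n = 7 each), a ratio of 3.69. The difference was 1.33 (SE 0.33, limma adjusted p = 0.00327), and permuting the genotypes over the retinas for nox1 (exact, two-sided) gave p = 0.00466. Without wt replicate 6, the difference was 1.51 (limma adjusted p = 0.00104).

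noxo1a, one of the organiser genes, was the most uneven of the Nox1 complex genes among chmru848 retinas, with 11.6, 134, 19.5, 592, 343, 321 and 48.3 normalized counts. The wt retinas had 16, 2.62, 0.709, 3.03, 7.84, 39.7 and 6.10. Replicates 2, 4, 5, 6 and 7 of chmru848 stood above every wt retina, while replicates 1 and 3 lay among the wt values. The highest chmru848 retina had 51.1 times the lowest, and the coefficient of variation was 104%. Only 4 of 7 wt retinas held at least 3 estimated reads, the floor used for detection. The means were 209.8 ± 217 and 10.9 ± 13.7 (SD, n = 7 each), a ratio of 19.3. The difference was 2.11 (SE 0.52, limma adjusted p = 0.00311), and the exact permutation test gave p = 0.00524. Without wt replicate 6, the wt mean was 6.05 ± 5.51 (SD, n = 6), which raised the ratio to 34.7, and the difference was 2.28 (limma adjusted p = 0.00246).

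noxo1b, the other organiser gene, had 52.0, 86.5, 59.1, 81.3, 105, 122 and 42.6 normalized counts in chmru848 retinas. The wt retinas had 14.5, 11.3, 19.8, 14.4, 8.41, 42.4 and 32.8. The groups did not overlap, but the gap was narrow, from 42.4 in wt replicate 6 to 42.6 in chmru848 replicate 7. The chmru848 retinas were much closer together than for noxo1a, with a coefficient of variation of 36.9%. The means were 78.4 ± 28.9 and 20.5 ± 12.5 (SD, n = 7 each), a ratio of 3.82. The difference was 1.12 (SE 0.22, limma adjusted p = 0.000514), and the exact permutation test gave p = 0.000583, the smallest value that the arrangements of 14 retinas allow. Without wt replicate 6, the difference was 1.22 (limma adjusted p = 0.000266).

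cyba, the membrane partner shared by both complexes, had 126, 209, 178, 195, 519, 271 and 346 normalized counts in chmru848 retinas and 104, 86.3, 74.9, 51.8, 121, 76.4 and 113 in wt retinas. Every chmru848 retina again lay above every wt retina, the nearest pair being chmru848 replicate 1 at 126 and wt replicate 5 at 121. The means were 264 ± 133 and 89.6 ± 24.3 (SD, n = 7 each), a ratio of 2.94. The difference was 1.17 (SE 0.25, limma adjusted p = 0.000943), with an exact permutation p of 0.000583. Without wt replicate 6, the difference was 1.15 (limma adjusted p = 0.00201). Groups that did not overlap, with chmru848 higher, were found for 7.57% of all genes tested and for noxo1b and cyba among the 5.

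ncf4, the phagocyte subunit p40phox, had 32.0, 0, 21.1, 0, 1.58, 23.3 and 7.54 normalized counts in chmru848 retinas. In wt retinas it had 0, 0, 1.90, 1.84, 0, 1.91 and 1.88. It reached 3 estimated reads in chmru848 replicates 1, 3, 6 and 7 and in 0 of 7 wt retinas, so no fold is given. The means were 12.2 ± 13.1 and 1.08 ± 1.01 (SD, n = 7 each). The difference of 0.59 (SE 0.27) missed the threshold (limma adjusted p = 0.0804), with an exact permutation p of 0.0962. The adjusted p depended on single retinas: it was 0.0290 without chmru848 replicate 2 and 0.0302 without replicate 4, both at 0, and 0.166 without replicate 1 and 0.158 without replicate 3 or 6, which held the most reads. Without wt replicate 6 it was 0.0858.

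**Figure D1:**
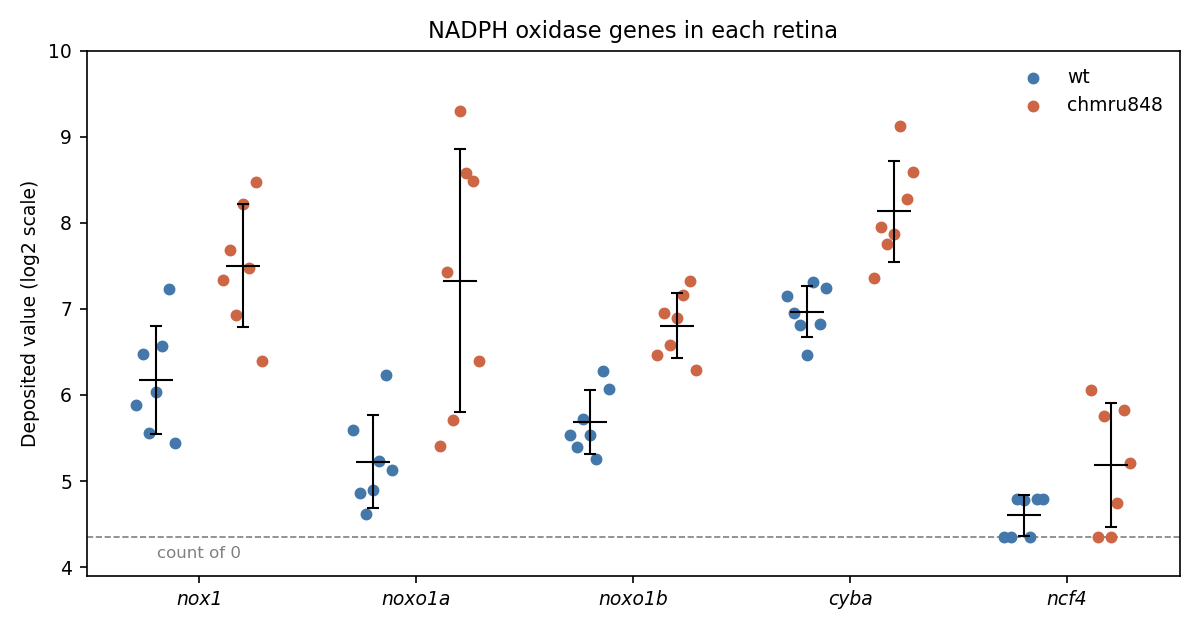
Deposited log2 value (vertical axis) of the 5 genes in each retina, with wt in blue and chmru848 in orange, 7 points per group. Black bars give the group mean ± SD and the dashed line is the lowest value of the table, which stands for a count of 0. The chmru848 points of noxo1b and cyba lie wholly above the wt points, noxo1a is spread most widely in chmru848, and 5 points of ncf4 lie on the line.

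The retinas that were high were not the same for every gene. All 5 genes stood above every wt retina in chmru848 replicate 6 alone. In chmru848 replicates 2, 4 and 5, the 4 genes of the Nox1 complex did so while ncf4 was at 0, 0 and 1.58 normalized counts. Replicates 2 and 4 had 1475 and 1469 genes at the lowest value, so a 0 there is weak evidence of absence. Replicate 1, with 1983 such genes, nevertheless had the most ncf4. In chmru848 replicates 1 and 3, noxo1a lay within the wt range, at 11.6 and 19.5, while noxo1b, cyba and ncf4 stood above every wt retina. Among wt retinas, replicate 6 was the highest for nox1, noxo1a and noxo1b, though not for cyba.

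The organiser paralogs were set against each other within each retina. The ratio of noxo1a to noxo1b was 0.223, 1.55, 0.330, 7.28, 3.25, 2.64 and 1.13 in chmru848 retinas. It was 1.11, 0.233, 0.0358, 0.211, 0.932, 0.936 and 0.186 in wt retinas. Thus 5 chmru848 retinas lay above every wt retina and the other 2, replicates 1 and 3, lay among them. In wt replicates 2, 3 and 4, noxo1a held 1.9, 0.9 and 2.5 estimated reads, below the floor of 3, so the ratios of these retinas are imprecise. On the deposited scale, noxo1a minus noxo1b was 0.52 ± 1.25 in chmru848 and -0.46 ± 0.47 in wt retinas (SD, n = 7 each). This difference of 0.99 did not pass an exact two-sided permutation test (p = 0.0717), so the larger fold of noxo1a was not shown to exceed that of noxo1b. Without chmru848 replicate 1 it was 1.25 (exact permutation p = 0.0204) and without replicate 3, the other low retina, it was 1.22 (exact permutation p = 0.0245), whereas without replicate 4, the highest, it was 0.67 (exact permutation p = 0.146). Reads that matched both paralogs were divided by an estimate during counting, which may blur the ratio.

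Among the other genes of the family, cybb gave the closest comparison, as it holds the catalytic place in the phagocyte complex. It had 81.3, 43.4, 41.0, 34.6, 82.7, 77.3 and 14 normalized counts in chmru848 retinas and 59.3, 40.3, 57.2, 55.4, 36.8, 46.4 and 49.5 in wt retinas. Its chmru848 values spread to both sides of the wt range, and the means were 53.5 ± 27.0 and 49.3 ± 8.63 (SD, n = 7 each; difference -0.00, SE 0.22, limma adjusted p = 0.997). The ratio of nox1 to cybb was 1.53, 3.83, 2.07, 7.48, 1.69, 4.10 and 3.42 in chmru848 retinas, and 0.426, 1.33, 0.266, 0.563, 1.60, 2.42 and 0.248 in wt retinas. It overlapped between the groups, with all 7 chmru848 retinas above the wt median. On the deposited scale, nox1 minus cybb was 1.1 ± 0.62 in chmru848 and -0.23 ± 0.74 in wt retinas (SD, n = 7 each). This comparison was added after the values were seen, and as cybb itself differed by -0.00, it restates the difference of nox1 and is no separate evidence.

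**Figure D2:**
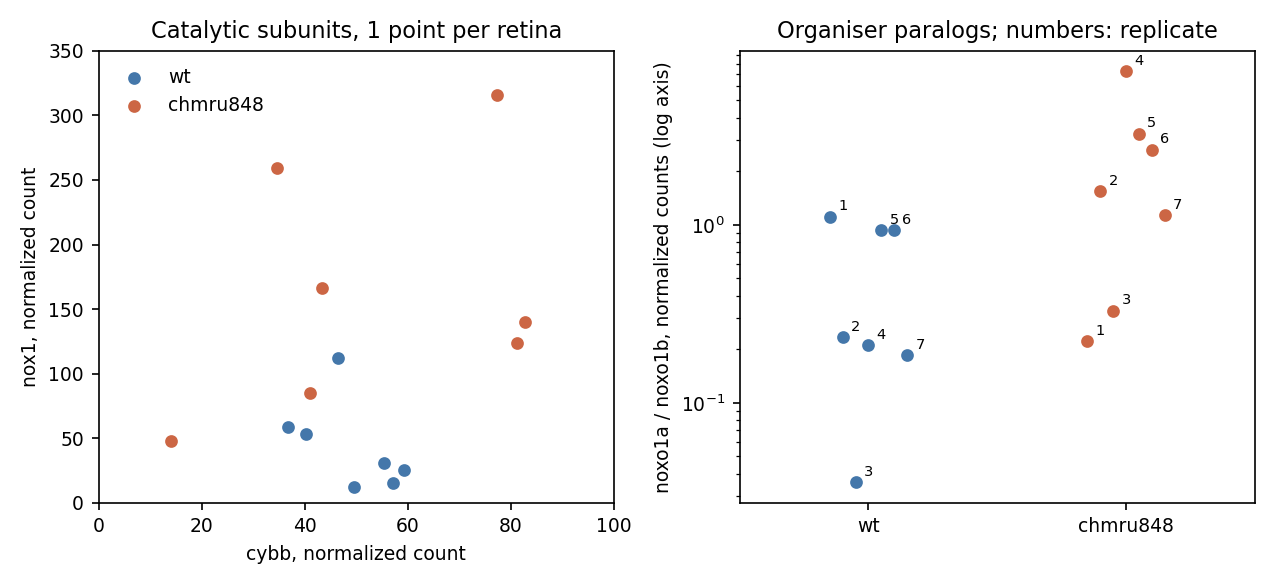
Left, normalized count of nox1 (vertical axis) against cybb (horizontal axis) with 1 point per retina. The wt points (blue) span a narrow range of cybb and mostly low nox1. The chmru848 points (orange) spread to both sides of the wt range of cybb, and the highest for nox1, 316, has 77.3 for cybb. Right, ratio of noxo1a to noxo1b per retina on a log axis, with replicate numbers: chmru848 replicates 4, 5, 6, 2 and 7 lie above all wt retinas, and replicates 1 and 3 lie among them.

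The phagocyte organiser was low and uneven. NCF1, the organiser of the phagocyte complex, had 0, 27.9, 8.87, 118, 81.3, 119 and 14.4 normalized counts in chmru848 retinas and 9.04, 11.3, 9.14, 22.8, 22.1, 50.7 and 4.92 in wt retinas. Its groups overlapped, although replicates 4, 5 and 6 of chmru848 stood above all wt retinas, and its difference was 0.50 (SE 0.40, limma adjusted p = 0.323). CYBC1, a chaperone of the cybb and cyba pair in mammals, had 81.0 ± 36.7 and 76.3 ± 22.4 normalized counts in chmru848 and wt retinas (SD, n = 7 each; limma adjusted p = 0.958). None of cybb, NCF1, CYBC1 and ncf4 passed, which does not show that they were equal between the genotypes. ncf4 minus the mean of the 4 Nox1 complex genes is given as a description only, and its test is not reported here. On the deposited scale it was -2.26 ± 1.21 in chmru848 and -1.41 ± 0.40 in wt retinas (SD, n = 7 each), and the groups overlapped.

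None of the remaining cofactors of the Nox1 complex passed as higher in chmru848 retinas. noxa1, the activator that pairs with Noxo1 in mammals, was near the floor in both genotypes, with 5.13 ± 7.5 and 5.17 ± 4.73 normalized counts (SD, n = 7 each; difference -0.13, limma adjusted p = 0.685) and with 3 chmru848 retinas and 1 wt retina at 0. The Rac GTPases were measured in 5 rows. rac2, the Rac of leukocytes, had 149.8 ± 106 in chmru848 and 114 ± 92.3 in wt retinas (limma adjusted p = 0.490), and rac1a had 725 ± 391 and 569.8 ± 111 (limma adjusted p = 0.587). RAC1 (ENSDARG00000087954) and a RAC3 row (ENSDARG00000090062) did not pass either. The other RAC3 row (ENSDARG00000020795) fell from 1065 ± 372 in wt to 313 ± 155 in chmru848 retinas (difference -1.67, SE 0.28, limma adjusted p = 0.000111).

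Over the list of other NADPH oxidase genes as a whole, 14 rows were tested, 1 was higher in chmru848 retinas, 2 were lower and 11 did not pass. Their median difference was 0.05, against -0.06 over all genes tested. These shares are below the 19.9% and 23.7% of all genes. The one that rose was sh3pxd2b, which encodes a scaffold of the organiser family known for podosomes in mammals, at 223 ± 94.2 against 90.8 ± 30.4 normalized counts (difference 1.0, SE 0.23, limma adjusted p = 0.00161). It also stands on a list that the study drew from these retinas. HVCN1, a proton channel that offsets the charge moved by the phagocyte oxidase in mammals, was lower at 61.2 ± 56.2 against 145 ± 71.3 (difference -1.06, SE 0.36, limma adjusted p = 0.0228). duox, a dual oxidase that makes hydrogen peroxide, had 6.07 ± 10.2 and 5.10 ± 5.69 (limma adjusted p = 0.679). The identifiers found for nox4 and nox5 were not among the 19859 genes.

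**Figure D3:**
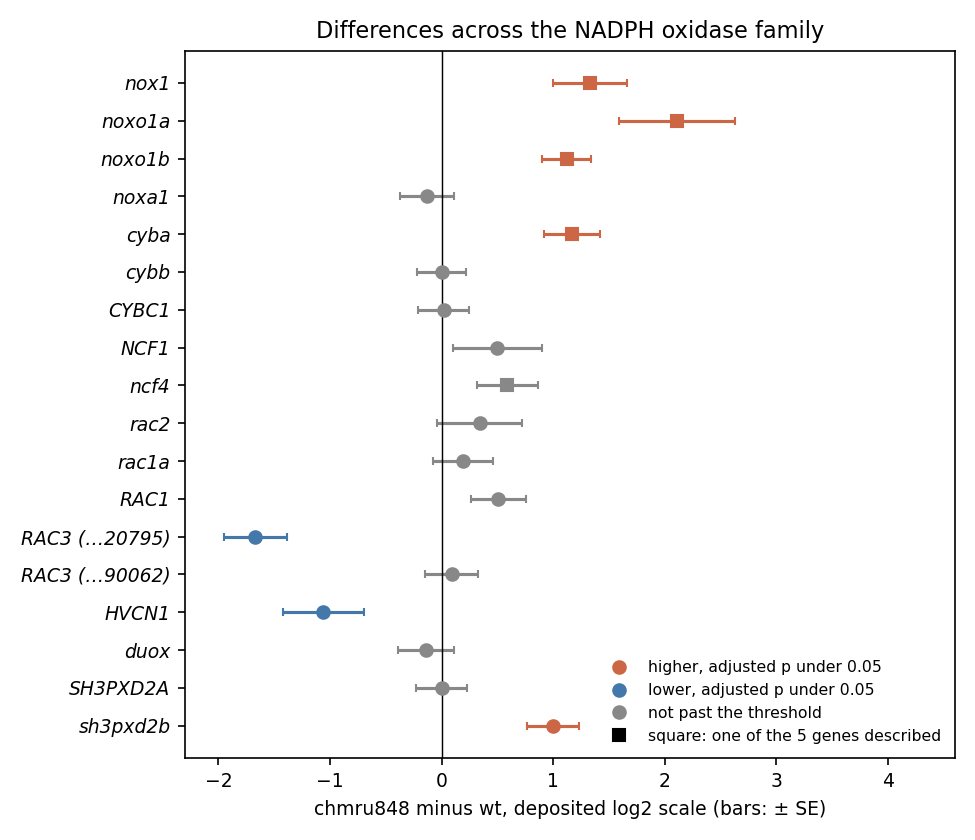
Difference between genotypes (horizontal axis, chmru848 minus wt on the deposited log2 scale, bars ± SE) for the 5 genes (squares) and for 13 of the 14 other rows of the NADPH oxidase family (circles), with 1 row that did not pass left out of the plot. Orange marks rows higher and blue rows lower in chmru848 at an adjusted p under 0.05, and grey marks rows that missed it. nox1, noxo1a, noxo1b, cyba and sh3pxd2b are orange, and the phagocyte rows cybb, NCF1 and ncf4 are grey.

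Genes of NADPH supply and genes for the removal of reactive oxygen species (ROS) were also read. The first list was not limited to the cytosol, where the oxidases take up NADPH, since it holds h6pd of the endoplasmic reticulum. Of 6 NADPH supply genes, 3 rose (50%, against 19.9% of all genes), 0 fell and 3 did not pass. Their median difference was 0.24, against -0.06 over all genes. Among the genes that rose, pgd and h6pd also stand on lists that the study drew from these retinas, so this share is no independent evidence. pgd, which makes NADPH in the pentose phosphate pathway, rose from 796 ± 265 to 4713 ± 3014 normalized counts (difference 2.32, limma adjusted p = 3.45e-05), and h6pd, the hexose-6-phosphate dehydrogenase of the endoplasmic reticulum, from 88.0 ± 30.5 to 387 ± 143 (1.72, limma adjusted p = 1.66e-05). Of 24 genes for ROS removal, 6 rose (25%), 4 fell (16.7%) and 14 did not pass, shares near the 19.9% and 23.7% of all genes, with a median of -0.16 against -0.06. Among those that passed, gclc, txn, cat and sod3a also stand on lists that the study drew from these retinas. The superoxide dismutase gene sod3a, whose product acts outside the cell, fell from 35.9 ± 10.1 to 2.62 ± 5.29 normalized counts (-1.48, limma adjusted p = 1.88e-05), and the cytosolic and mitochondrial dismutases SOD1 and SOD2 had differences of -0.64 and -0.65 that did not pass (limma adjusted p = 0.0683 and 0.0694). The genes that rose were gclc (1.73), GCLM (0.94) and GSR (0.70) of glutathione synthesis and reduction, gpx3 (0.87), GPX4 (3.04) and the thioredoxin gene txn (3.85). txn rose from 258 ± 137 to 4129 ± 1473 normalized counts (limma adjusted p = 1.38e-08). GPX4 (ENSDARG00000076836) rose from 5807 ± 1661 to 49478 ± 17516 (limma adjusted p = 4.09e-08). Another gpx4 row, gpx4a, did not pass, with 1984 ± 809.8 in wt and 2188 ± 865 in chmru848 retinas (limma adjusted p = 0.677). The others that fell were the glutathione peroxidase gene gpx1a, from 1042 ± 284 to 174 ± 300.0 normalized counts (-3.86, limma adjusted p = 0.000221), the catalase gene cat, from 1922 ± 236 to 803 ± 231 (-1.26, limma adjusted p = 3.36e-05), and NQO1, a quinone reductase gene, from 459 ± 174 to 228 ± 198 (-1.12, limma adjusted p = 0.0211).

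Markers of other cell types moved in part with these genes. Of 22 phagocyte and leukocyte rows, 9 rose (40.9%, against 19.9% of all genes), 1 fell and 12 did not pass, and their median difference was 0.70. Their summed level was 20177 to 71693 normalized counts in chmru848 and 9069 to 40052 in wt retinas, but 67.2% to 98.3% of each sum came from apoeb, which did not pass (limma adjusted p = 0.0790). Without apoeb the sum was 1997 to 7581 in chmru848 and 388 to 1218 in wt retinas. MMP9, at 836 to 4549.7 in chmru848 and 7.35 to 105 in wt retinas, was a large part of the chmru848 sums. With MMP9 left out too, the groups overlapped. In chmru848 replicate 3 the full sum was 28479, with 25046 from apoeb and 2927 from MMP9. In wt replicate 6 it was 13719.8, with 12502 from apoeb and 105 from MMP9. At least 1 retina was at 0 in 9 rows. card9 and il1b, which rose, also stand on lists that the study drew from these retinas. The neutrophil gene lyz rose from 6.51 ± 7.30 to 225 ± 147 normalized counts, and the myeloid transcription factor gene SPI1 from 21.1 ± 10.7 to 65.6 ± 29.3, while its paralog spi1a fell from 56.8 ± 26.5 to 21.3 ± 9.51. The pan-leukocyte gene ptprc also rose, from 5.66 ± 3.72 to 18.8 ± 14.3. Of the macrophage gene MFAP4, the row ENSDARG00000038683 rose from 2.67 ± 4.42 to 83.5 ± 113 (limma adjusted p = 0.00151). The other MFAP4 rows tested did not pass. Some other pan-leukocyte and macrophage rows did not pass either. CORO1A had 62.2 ± 55.8 in chmru848 and 57.3 ± 30.5 in wt retinas, and LCP1 had 37.6 ± 40.4 and 35.2 ± 15.5. The MPEG1 rows had 74.4 ± 76.5 and 87.5 ± 84.9, and 40.5 ± 34.6 and 26.6 ± 15.1. Of 7 surface epithelium rows, 2 rose (28.6%), 1 fell (14.3%) and 4 did not pass, against 19.9% higher and 23.7% lower of all genes. Their median difference was -0.92, and their summed level was 3991 to 30071 in chmru848 and 2296 to 79213 in wt retinas. Among them cdh1, the E-cadherin gene, rose from 78.3 ± 52.2 to 2601 ± 704 normalized counts with no overlap (4.62, limma adjusted p = 1.64e-09), and epcam fell from 408 ± 432 to 35.9 ± 37.9. The part of these cell types in the results for nox1, noxo1a, noxo1b, cyba and ncf4 was not tested.

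Within a genotype, the 5 genes were compared across the 7 retinas in 10 pairs, or 20 relations over both genotypes. 0 of the 20 passed after adjustment, and 2 in chmru848 and 1 in wt retinas had an unadjusted exact permutation p under 0.05 for Pearson's r. In chmru848 retinas, nox1 and noxo1b gave r = 0.82 (exact permutation p = 0.0238, adjusted p = 0.315) and rho = 0.82 (exact permutation p = 0.0341, adjusted p = 0.341), but r was 0.48 without the 2 retinas farthest from the nox1 median. noxo1a and noxo1b gave r = 0.79 (exact permutation p = 0.0472, adjusted p = 0.315) and rho = 0.64 (exact permutation p = 0.139, adjusted p = 0.556), with r = 0.89 without the 2 outermost retinas. nox1 and noxo1a gave r = 0.73 (exact permutation p = 0.0669, adjusted p = 0.334) and rho = 0.68 (exact permutation p = 0.110, adjusted p = 0.556), with r = 0.81 without the 2 outermost. nox1 and cyba gave r = -0.11 (exact permutation p = 0.823, adjusted p = 0.902) and rho = 0.07 (exact permutation p = 0.906, adjusted p = 1.0), with r = 0.09 without the 2 outermost. noxo1a and ncf4 gave r = -0.63 (exact permutation p = 0.127, adjusted p = 0.422) and rho = -0.67 (exact permutation p = 0.120, adjusted p = 0.556), with r = -0.26 without the 2 outermost. In wt retinas, noxo1b and ncf4 gave r = 0.73 (exact permutation p = 0.0417, adjusted p = 0.315) and rho = 0.85 (exact permutation p = 0.0286, adjusted p = 0.341), with r = 0.73 without the 2 outermost, on ncf4 values all below 3 reads.

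The genes most like each of the 5 were sought among 18877 named genes, by Pearson's r over the 14 retinas after each genotype's mean was taken away, and are given as a description without a test. Points share their library, and the best of so many genes will have a high r by selection. For noxo1a, NCF1 came first (r = 0.92), followed by LECT2 (0.92), named for a leukocyte chemotactic factor, and abcg2b (0.92), an ABC transporter gene. NCF1 encodes the subunit with the same organiser role in the phagocyte complex. The retinas in which noxo1a was highest, replicates 4, 5 and 6 of chmru848 and replicate 6 of wt, were also the highest of their genotype for NCF1. il1b, the gene of interleukin-1β, had 1463, 484 and 962 normalized counts in those chmru848 retinas and 325 in wt replicate 6, against 54.8 to 209 in the other chmru848 retinas and 6.17 to 20.1 in the other wt retinas. In 2 of those chmru848 retinas, replicates 4 and 5, ncf4 was at 0 and 1.58 normalized counts. The il1b row was picked from the leukocyte list after the values were seen, and other rows of that list were not all alike. mmp13a and MFAP4 (ENSDARG00000088745) were also highest in replicates 4, 5 and 6 of chmru848 and replicate 6 of wt. In contrast, lyz and LCP1 were highest in chmru848 replicate 2 and CORO1A in chmru848 replicate 7.

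**Figure D4:**
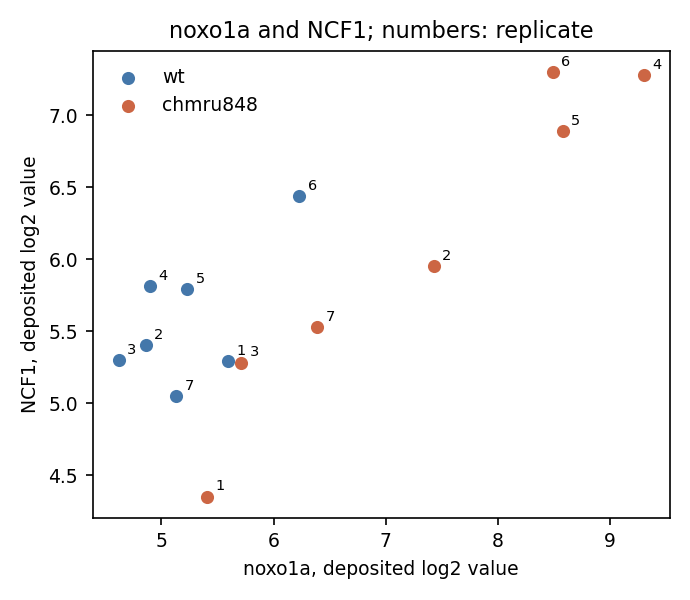
Deposited log2 value of NCF1 (vertical axis) against noxo1a (horizontal axis) with 1 point per retina, wt in blue and chmru848 in orange, and replicate numbers beside the points. Replicates 4, 5 and 6 of chmru848 stand at the upper right and replicate 6 is the highest wt retina for both genes.

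For nox1 the nearest genes were TMTC1 (r = 0.91), NEDD4L (0.90), a ubiquitin ligase gene known for sodium channels, and NYAP2 (0.89), a neuronal adaptor gene. For noxo1b they were gpr137bb (0.89), hif1aa (0.87), a paralog of the hypoxia-inducible factor HIF-1α, and UNC5D (0.87), a netrin receptor gene. For cyba they were STAT4 (0.92), a cytokine-activated transcription factor gene, si:dkey-65b12.6 (0.91) and BTBD17 (0.89). For ncf4 they were ZMAT3, MYBPC2 and znf1187 (0.85 each), on values that were at 0 in 5 of 14 retinas. Of these 15 genes, 1 (LECT2, 1.55) passed between genotypes in the direction of the gene it followed, 8 did not pass and 6 passed in the opposite direction. The 6 were TMTC1 (-1.45) and NYAP2 (-1.26) for nox1, hif1aa (-1.06) and UNC5D (-1.01) for noxo1b, and STAT4 (-0.84) and BTBD17 (-0.98) for cyba. As all 5 genes had positive differences, opposite means lower in chmru848 retinas. Of all genes tested, 23.7% were lower and 19.9% were higher in chmru848 retinas.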

How the data were processed

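Bulk RNAseq of dissected retinas, RPE included, covered 7 chmru848 and 7 wt zebrafish at 5 dpf, grouped by sample title. Libraries were made from total RNA with the SMART-Seq v4 kit. Per the study's methods and the submitters' processing notes, the authors trimmed reads with Trim Galore 0.6.7, aligned them to GRCz11 with STAR 2.7.10a, counted them per gene with RSEM 1.3.3 and normalised them with DESeq2 1.38.3. The deposited table holds log2 values after the authors' variance-stabilizing transformation, from 4.35 to 23.1, for 19859 genes.

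Normalized counts were recovered by inverting the transformation, with 4.35 standing for a count of 0, and were checked against the base means listed for 250 genes (largest relative difference 1.7e-14). For depth, the spacing of low normalized counts within a retina was taken as 1 read. Within each retina, 47.8% to 64.3% of low values were near whole reads, since RSEM divides shared reads, so no count test was run. The detection floor of 3 estimated reads covers counting error only.

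limma 3.58.1 (R 4.3.3) was run on the deposited values as a two-sided test with a variance trend. p values were adjusted by Benjamini-Hochberg over 19751 genes, each above 4.35 in 7 or more of the 14 retinas (108 were left out). Single genes and contrasts were tested by exact permutation, with all arrangements of the retinas enumerated in Python 3.11.15. Ranks for rho came from scipy 1.17.1. Scripts were tested on simulated data. Alternatives covered the filter, trend, robust moderation, weights, centring, quantile normalization, log2 normalized counts plus 0.5 or 5, a replicate block, an exact rank-sum test and each retina left out. A covariate for how many genes each retina had at 4.35, leaving out the 3 chmru848 retinas with the most such genes, and the contrast of nox1 with cybb were chosen after seeing the data.

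The genes named are the 5 members, fixed lists of other oxidase, ROS removal and NADPH supply genes, cell type markers, and for each member the 3 named genes most like it. LECT2 and il1b values by retina, CHM, the retina-by-retina counts and the values without wt replicate 6 outside the tests were added after values were seen. Members and lists were chosen with earlier results of these data known. Names came from a reference table and the study's own tables, which together held 18974 of the 19859 identifiers. The name used was an exact zebrafish symbol, else that of the study's tables, else the human-style name in capitals with all its rows. This rule was made after the reference table was opened. Some genes of these lists are counted but not reported here by name. Promoter motifs were not searched, because no sequences were used here. Without transcript lengths, the levels of different genes were not ranked, and ratios between genes were only compared from retina to retina. The labels and methods name 7 zebrafish per group.

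No pairing of the samples by replicate number was seen: correlations of same-numbered deviations were -0.12 to 0.10, over 0.1 in 1 of 7 pairs. Such correlations cannot exclude a shared clutch or batch.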

Additional observations from a re-analysis of the deposited data

Results flagged for a closer look

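Of 38 groups of 7 retinas examined, covering the 5 genes and 14 other oxidase rows in each genotype, 1 held a sample far from the rest. Chance alone gives about 1 in 20, so this count is no more than chance would give. rac1a (ENSDARG00000074849) had 335 normalized counts in wt replicate 6 and 522 to 641 in the other wt retinas. On the deposited log2 scale, the gap made up 0.678 of the group's range, above Dixon's critical value for 7 samples. This is the wt retina with the highest nox1, noxo1a and noxo1b.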

How the results depend on the processing

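nox1, noxo1a, noxo1b and cyba kept their direction and passed the threshold in all 25 or 26 limma alternatives that tested them and in an exact rank-sum test. Their differences ranged from 1.13 to 2.0, 1.78 to 3.95, 1.04 to 2.02 and 1.01 to 1.60, the highest values of the first 3 coming from log2 normalized counts plus 0.5, and their adjusted p from 0.000378 to 0.0327, 0.000765 to 0.00823, 6.14e-05 to 0.00262 and 6.64e-05 to 0.00289. The difference of ncf4 ranged from 0.44 to 2.01, with a limma adjusted p of 0.0104 to 0.166 and an exact rank-sum p of 0.248. It passed in 5 of 25 limma alternatives: with sample weights (0.76, adjusted p = 0.0112), with quantile normalization (0.74, 0.0214), without chmru848 replicate 2 (0.73, 0.0290) or 4 (0.73, 0.0302), and without the 3 chmru848 retinas with the most genes at the lowest value (0.79, 0.0104). The number of the 5 genes that rose was 4 and became 5 where ncf4 passed. Over all genes, 3940 (19.9%) rose in the main test, 4521 with sample weights and 4370 with quantile normalization. Without chmru848 replicate 2 or 4 these were 3970 and 3765, and without the 3 chmru848 retinas 3801. The number of the 5 was 2 under a filter that required a mean at least 2 above the lowest value, because only nox1 and cyba remained tested.

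The difference between noxo1a and noxo1b, 0.99, was 1.93 on log2 normalized counts plus 0.5 (exact permutation p = 0.0495) and 0.67 to 1.25 with each retina left out. The contrast of ncf4 with the Nox1 complex mean, -0.85, was -1.12 to -0.60 with each retina left out (-1.12 without chmru848 replicate 1) and -0.35 on log2 normalized counts plus 0.5. The contrast of nox1 with cybb was 1.16 to 2.07. Correlations that turned sign were small to begin with or rested on few retinas: nox1 and noxo1b in wt, 0.09, became -0.01 with 5 added and -0.97 without the 2 outermost retinas. noxo1a and ncf4 in wt, -0.00, became 0.08 with median centring. nox1 and cyba became 0.09 in chmru848 and 0.43 in wt retinas without the 2 outermost, from -0.11 and -0.08. The causes were not tested.

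No pairing of the samples by replicate number was seen, and 0 retinas correlated best with their own number. With the replicate block the differences were 1.33 for nox1 and 0.59 for ncf4 (limma adjusted p = 0.000378 and 0.0678), and no call among the 5 genes changed. The SE of nox1 went from 0.33 to 0.21 with the block. In both genotypes nox1 was highest in replicate 6 (316 in chmru848, 112 in wt) and lowest in replicate 7 (47.9 and 12.3). Over all alternatives 3132 to 4521 genes were higher and 3371 to 5401 lower in chmru848 retinas. Levels near 3 estimated reads, as for ncf4, noxa1 and noxo1a in wt, are limited by depth.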
